A study of Mus musculus with 17 samples.

Results

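Tumours of MCA205, a transplantable fibrosarcoma line of the mouse, were grown in C57BL/6 wild-type mice to a palpable size and injected, within the tumour, with phosphate-buffered saline (PBS), the control of the study's doxorubicin (DX) injection. The comparison described here sets the tumours taken 7 days after the PBS injection (n = 3) against those taken 2 days after it (n = 3), which makes 6 of the 17 arrays of the series. Both groups carried the same tumour line, host strain and injection, had no drug, and differed by the 5 days between sampling times. All genes measured above background were described: 12451 genes, from 17674 of 45281 probes with a detection p under 0.01 on at least 2 arrays. The other arrays were DX tumours of day 2 (n = 2), of day 7, divided by the study by tumour shrinkage into responders (n = 3) and non-responders (n = 3), and of day 10 responders (n = 3). The day 7 and day 2 DX arrays served for 1 comparison, and those of day 10 for the estimate of spread alone.

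A transplanted sarcoma is a mixture of malignant cells and host cells, among them macrophages, lymphocytes, fibroblasts and endothelium. As such a mass grows, its cells move away from perfused vessels, and low oxygen stabilises the hypoxia-inducible factors (HIF), which switch on glucose uptake, glycolysis, pH regulation and collagen hydroxylation. Injection and implantation also wound tissue, and wounds are known for an early phase of acute-phase proteins, interleukin 1 and monocyte-attracting chemokines. Cytotoxic lymphocytes that enter a tumour carry granzymes, serine proteases stored in granules, and show costimulatory receptors once activated.

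RNA from whole tumours was measured on Illumina BeadChips for the mouse, with 1 intensity per probe and array. Values below are normalized log2 signals, so that a difference of 1 is a doubling, and each set of 3 values runs over replicates 1 to 3. Day 7 arrays detected 13728 to 14359 probes, and day 2 arrays 15055 to 15367. Their upper quartile of signal was 133.3 to 156.7 on day 7 and 169.8 to 214.2 on day 2, so every day 7 array was dimmer than every day 2 array before normalization. Correlations of log2 signal were 0.982 to 0.987 within day 7, 0.987 to 0.989 within day 2 and 0.974 to 0.986 between the days. All 6 fibrosarcoma and fibroblast markers were detected on all 6 arrays and 0 were called. Means of Vim, an intermediate filament protein of mesenchymal cells, were 11.96 on day 7 and 11.90 on day 2, and those of Sparc, a matrix glycoprotein, 12.29 on day 7 and 12.40 on day 2. The dimmest of the 6, Pdgfrb, a growth factor receptor of fibroblasts and pericytes, had means of 7.07 on day 7 and 7.59 on day 2, and Col1a1, described with the matrix genes, was also lower on every day 7 array.

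Markers of tissue outside the tumour varied between the day 2 arrays. The 4 skeletal muscle markers summed to linear signals of 144 to 200 on day 7 arrays and 108 to 2321 on day 2 arrays, and Myl1, a muscle myosin light chain, had 5.90, 6.63 and 5.41 on day 7 and 10.15, 4.71 and 8.26 on day 2. Muscle signal was high on day 2 replicates 1 and 3 and low on replicate 2, and Ckm, muscle creatine kinase, was detected on none of the 6 arrays. The 3 skin epithelium markers summed to 524 to 703 on day 7 and 558 to 2491 on day 2, with Krt14, a basal keratin, at 10.22 on day 2 replicate 3 and at 6.09 or less elsewhere. No muscle or skin gene of the lists was called between the days. Of 3 adipocyte markers, Plin1 and Cidec were below detection, and Adipoq, adiponectin, was detected on 0 of 3 day 7 arrays (4.74, 4.35 and 4.59) and 2 of 3 day 2 arrays (5.63, 5.17 and 4.87), highest on day 2 replicate 1 and without overlap. Of 6 adipocyte genes tested, 0 were called and the median was -0.43 (-0.06 with arrays scaled to a common median); 3 lay lower on day 7 without overlap and 1 higher. Ms4a1 of B cells, Sox10 of Schwann cells and Ncr1 of natural killer (NK) cells were below detection. The labels do not say whether replicates came from separate mice, so the p-values rest on the spread between samples. That spread was taken within all groups of the series, DX arrays included, except where PBS arrays were fitted alone.

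PBS tumours of day 7 had more transcript than those of day 2 for 2 granzymes and 6 hypoxia and glycolysis genes, and less for 3 of 16 complement and acute-phase genes, Ccl8 and Il1b, while most genes moved little. Of 12451 genes, 79 (0.634%) passed a Benjamini-Hochberg adjusted p of 0.05 in limma and are called changed: 40 were higher on day 7 (0.321%) and 39 lower (0.313%). An unadjusted p under 0.05 was found for 1803 genes (14.5%). The median size of the difference over all genes was 0.18, and the median difference was -0.02. Called rises ran from 0.42 to 3.06 (median 0.91), and called falls ran from -0.57 to -2.90 (median -1.15). All 79 called genes had day 7 arrays that did not overlap day 2 arrays, a property shared by 2812 genes (22.6%), 1310 of them above and 1502 below. Without collapsing probes to genes, 99 of 17674 probes were called (0.56%). Of the 79 genes, 55 have a symbol (30 higher and 25 lower). The arrays lay on 3 BeadChips, 2 of which held PBS arrays of both days. BeadChip 2 held day 7 replicates 2 and 3, with day 2 replicate 1 as the only array of its day. BeadChip 3 held day 2 replicates 2 and 3, with day 7 replicate 1 as the only array of its day. All 79 genes had the same direction within each of these 2 BeadChips, which follows from the lack of overlap and is no test of BeadChip.

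The number of calls rested on all 6 arrays, since fits with 1 array left out called 8 to 57 genes. The number was 8 without day 2 replicate 1, 29 without day 7 replicate 2, 32 without day 7 replicate 3, 41 without day 2 replicate 3, 55 without day 2 replicate 2 and 57 without day 7 replicate 1. With both dim day 7 arrays, replicates 2 and 3, left out, 0 genes were called by limma, with 765 at an unadjusted p under 0.05 and a smallest adjusted p of 0.0777. All 79 genes kept their direction in each of these fits, which follows from the lack of overlap between the days and is no sign of stability. Scaling every array to a common median in place of quantile normalization called 65 genes higher and 31 lower (67.7% higher, against 50.6%) and moved the median of all genes by 0.11. In whole tumours, fewer cells of a type and less RNA per cell cannot be told apart.

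**Figure D1:**
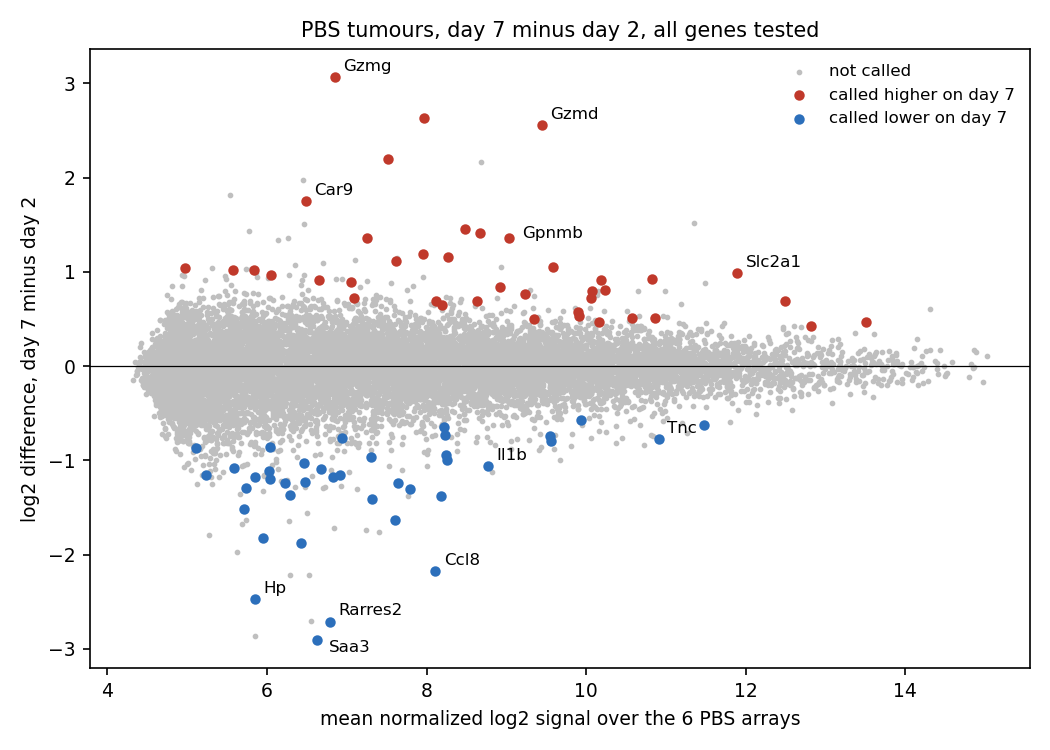
Each point is 1 of 12451 genes, placed by its mean normalized log2 signal over the 6 PBS arrays (horizontal axis) and its log2 difference, day 7 minus day 2 (vertical axis). Red points are the 40 genes called higher on day 7 and blue points the 39 called lower; the differences reach 3.06 for Gzmg and -2.90 for Saa3.

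Of 21 hypoxia and glycolysis genes tested, 6 were called higher on day 7 (28.6%, against 0.321% of all genes) and 0 lower. A positive difference was found for 20 of the 21, against 47.5% of all genes. The list was chosen with earlier results of these data known, which limits what these shares can show. Their median difference was 0.38, against -0.02 over all genes, and with arrays scaled to a common median it was 0.59, against 0.10. The summed linear signal of the list, to which bright genes add most, did not overlap. It was 82485 to 91046 on day 7 arrays and 64164 to 77776 on day 2 arrays. The median log2 signal of the members did overlap. It was 10.73, 10.38 and 10.55 on day 7 and 9.50, 10.47 and 9.50 on day 2.

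Car9 is a membrane carbonic anhydrase that takes part in the pH regulation of hypoxic cells. It had 7.84, 7.12 and 7.15 on day 7 and 5.48, 6.42 and 4.95 on day 2. Day 2 replicate 2 was the highest and replicate 3, where the probe was not detected, the lowest of the day 2 arrays, and no day 2 array reached the day 7 range. The difference was 1.75 ± 0.34 (SE), 3.36-fold (adjusted p = 0.0225). Slc2a1, the glucose transporter GLUT1, had 12.41, 12.19 and 12.57 on day 7 and 11.20, 11.87 and 11.13 on day 2, with day 2 replicate 2 again nearest to the day 7 arrays. It was 1.99-fold higher on day 7, a difference of 0.99 ± 0.19 (adjusted p = 0.0252). P4ha1, a catalytic subunit of collagen prolyl hydroxylase, had 8.72, 8.48 and 9.36 on day 7 and 7.55, 7.92 and 7.63 on day 2, highest on day 7 replicate 3 and with no overlap. Its difference was 1.16 ± 0.20 (adjusted p = 0.0119).

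Pfkfb3, which makes the allosteric activator of phosphofructokinase, had 5.74, 5.17 and 5.58 on day 7, detected on 2 of 3 arrays, and 4.34, 4.67 and 4.36 on day 2, detected on 0 of 3. Day 7 was at least 1.27-fold higher, the day 7 mean being set against the lowest detected signal of each day 2 array (adjusted p = 0.0280). Ndrg1, a stress-induced gene, and Tpi1, the glycolytic triosephosphate isomerase, complete the called members with differences of 0.92 ± 0.20 and 0.47 ± 0.09 (adjusted p = 0.0369 and 0.0280). Tpi1 was bright on every array, with 13.62, 13.70 and 13.91 on day 7 and 13.16, 13.44 and 13.22 on day 2, with no overlap.

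Among glycolytic members that were not called, Gapdh and Ldha had differences of 0.35 and 0.29 (adjusted p = 0.0582 and 0.156). Neither overlapped between the days, and Pgk1, phosphoglycerate kinase, had a difference of 0.01. Gapdh was called with arrays scaled to a common median and with array weights (adjusted p = 0.0139 and 0.0234). It was also called with BeadChip as a random block and with a common detection floor (adjusted p = 0.0468 and 0.0404). A filter for detection on all arrays of a PBS group gave a call too (adjusted p = 0.0455), and no other alternative did. Egln3, a HIF prolyl hydroxylase, had 10.73, 10.38 and 10.54 on day 7 and 9.30, 10.47 and 9.50 on day 2, a difference of 0.79 ± 0.22 (adjusted p = 0.116). Its day 2 replicate 2 lay within the day 7 range, and so did that array for Ankrd37, a HIF target. Without that array Egln3 and Ankrd37 were called (adjusted p = 0.00383 and 0.0385), but neither was called in any other alternative fit. Vegfa, the main angiogenic ligand, had 11.39, 11.15 and 11.02 on day 7 and 10.88, 11.23 and 10.89 on day 2, with overlap and a difference of 0.19 ± 0.14 (adjusted p = 0.589). Hk2 and Eno1 were not analysed here, and Bnip3 and Ero1a were below detection.

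A pair of called genes outside the list carry related functions. Aldoc, the brain-type aldolase of glycolysis, had 9.37, 9.27 and 9.51 on day 7 and 7.60, 8.19 and 8.11 on day 2, without overlap, and its difference was 1.42 ± 0.16 (adjusted p = 5.40e-04). Mgarp, a mitochondrial protein known as a HIF target, had 9.44, 8.97 and 9.24 on day 7 and 7.37, 8.49 and 7.43 on day 2, where replicate 2 again stood above the others, and its difference was 1.45 ± 0.23 (adjusted p = 0.00707). Aldoc stayed called without any 1 of the 6 arrays, and Mgarp without any but day 2 replicate 1.

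The count of called hypoxia members varied with the arrays. It was 9 without day 2 replicate 2, the array with the highest signals of this list on that day, 2, 3 and 1 without day 7 replicates 1, 2 and 3, 0 without day 2 replicate 1, and 1 without day 2 replicate 3. The median difference of the list was 0.36 to 0.56 over these fits, 0.61 within BeadChip 2 and 0.42 within BeadChip 3. Car9 differed by 1.41 to 2.15 with 1 array left out and P4ha1 by 0.90 to 1.34, and P4ha1 was not called without day 2 replicate 1. Car9 and Ndrg1 were called in the fit without day 2 replicate 2 and in none of the other 5, Tpi1 in those without day 7 replicate 1 or day 2 replicate 2, and Slc2a1 and Pfkfb3 in those without day 7 replicate 2 or day 2 replicate 2. Ndrg1 was not called with BeadChip as a block (adjusted p = 0.0571), nor Car9 in the authors' normalized values (adjusted p = 0.0651). Further probes of a gene did not always show the same size: others for Car9 differed by 1.55 and 0.20, and another for P4ha1 by 0.07.

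**Figure D2:**
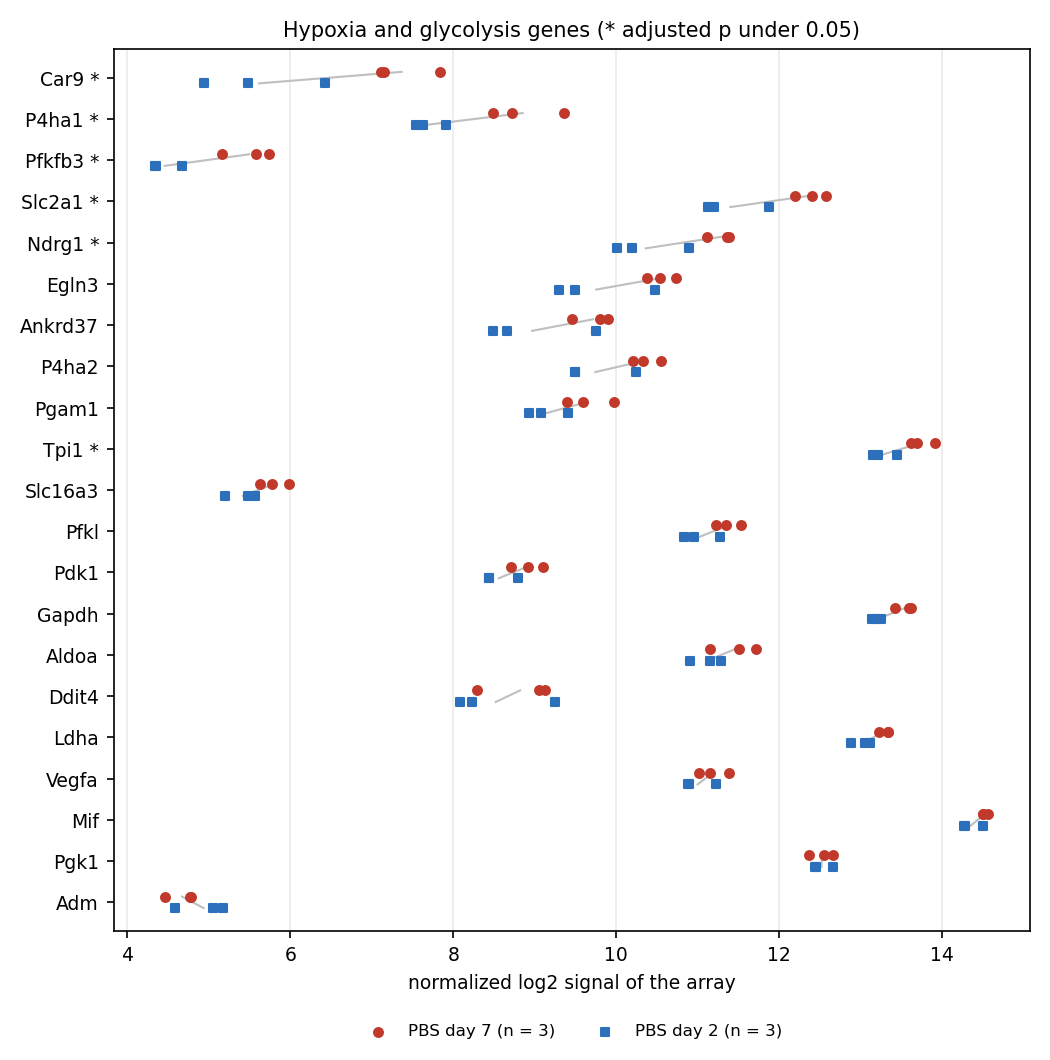
Normalized log2 signal (horizontal axis) of the 21 hypoxia and glycolysis genes tested, 1 row per gene, with red circles for the 3 day 7 arrays and blue squares for the 3 day 2 arrays; grey lines join the group means, and asterisks mark the 6 called genes. Red circles lie to the right of blue squares for all 6 called genes, and in 20 of 21 rows the rightmost blue square is day 2 replicate 2.

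Promoters of the called hypoxia members are shown because HIF binds a short core, ACGTG or GCGTG, near the start sites of its targets. The windows, from RefSeq on GRCm38.p6, run from 250 bases before to 50 bases after the start site and are written 5′ to 3′ along the gene, with each core on either strand in capitals (CACGT and CACGC are its reverse complements).
Car9, chr4:43506776-43507075, plus strand: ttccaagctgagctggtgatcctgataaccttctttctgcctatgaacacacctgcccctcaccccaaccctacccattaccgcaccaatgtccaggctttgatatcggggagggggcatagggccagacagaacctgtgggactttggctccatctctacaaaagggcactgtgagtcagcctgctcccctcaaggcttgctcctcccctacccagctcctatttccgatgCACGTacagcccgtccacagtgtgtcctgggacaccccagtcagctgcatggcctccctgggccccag
P4ha1, chr10:59323046-59323345, plus strand: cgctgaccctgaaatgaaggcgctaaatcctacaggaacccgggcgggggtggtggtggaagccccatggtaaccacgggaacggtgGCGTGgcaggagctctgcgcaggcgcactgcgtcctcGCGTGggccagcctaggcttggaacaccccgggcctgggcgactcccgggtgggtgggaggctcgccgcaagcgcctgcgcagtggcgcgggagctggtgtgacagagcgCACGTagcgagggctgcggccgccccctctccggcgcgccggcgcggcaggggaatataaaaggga
Slc2a1, chr4:119108495-119108794, plus strand: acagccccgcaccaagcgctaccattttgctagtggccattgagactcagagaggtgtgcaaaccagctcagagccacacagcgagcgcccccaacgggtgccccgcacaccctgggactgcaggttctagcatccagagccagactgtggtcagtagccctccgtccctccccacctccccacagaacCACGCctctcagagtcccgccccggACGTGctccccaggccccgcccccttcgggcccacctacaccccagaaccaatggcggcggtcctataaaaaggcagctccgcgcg
Pfkfb3, chr2:11553880-11554179, minus strand, the first of 2 windows listed: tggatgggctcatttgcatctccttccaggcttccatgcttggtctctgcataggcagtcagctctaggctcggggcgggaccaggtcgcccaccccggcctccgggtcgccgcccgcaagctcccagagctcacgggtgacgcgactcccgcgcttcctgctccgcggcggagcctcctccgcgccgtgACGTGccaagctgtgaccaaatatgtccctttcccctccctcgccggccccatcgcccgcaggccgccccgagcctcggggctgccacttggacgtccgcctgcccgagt
The core stood once in the Car9 window and 3 times in that of P4ha1. Slc2a1 held it 2 times and Pfkfb3 once. The window of Tpi1 held none of these letters, and Ndrg1 was not analysed here. The core was found in 4 of 5 called members (80%), in 13 of 15 members that were not called (86.7%) and in 14380 of 32851 promoters of this length (43.8%), so its presence did not separate called from other members.

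The largest rise of a gene with a symbol was in the granzymes. Gzmg, granzyme G, had 8.02, 7.33 and 9.80 on day 7 and 5.18, 5.22 and 5.56 on day 2, and Gzmd, granzyme D, had 10.20, 9.75 and 12.22 on day 7 and 7.31, 8.23 and 8.97 on day 2. Both were highest on day 7 replicate 3, and neither overlapped between the days, although the day 7 arrays of each spread over more than 2 log2 units. The differences were 3.06 ± 0.55 (8.36-fold, adjusted p = 0.0140) and 2.55 ± 0.52 (5.87-fold, adjusted p = 0.0302). Gzme and Gzmn, of the same gene cluster, had day 7 signals of 5.78, 5.78 and 7.77 for Gzme and 5.03, 5.74 and 6.74 for Gzmn, and neither was detected on day 2. Their adjusted p were 0.159 and 0.365. Granzymes D, E and G are close in sequence, and a probe for one can bind transcripts of another, so that which of them rose is uncertain. Without day 7 replicate 3 the differences were 2.36 for Gzmg and 1.80 for Gzmd and neither was called. Without day 2 replicate 1 they were 2.99 and 2.12 and again not called, and Gzmd was not called without day 2 replicate 2 (2.59). In the authors' normalized values neither was called (adjusted p = 0.0937 for Gzmg and 0.0521 for Gzmd), and a second probe for Gzmd differed by 1.99 (adjusted p = 0.128).

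Tnfrsf9, the costimulatory receptor 4-1BB of activated lymphocytes, had 7.97, 7.74 and 8.10 on day 7 and 6.40, 6.88 and 6.45 on day 2. All 3 day 7 arrays lay above all day 2 arrays, and the difference was 1.36 ± 0.23 (adjusted p = 0.0106). A second probe for Tnfrsf9 differed by 0.73 and was not called (adjusted p = 0.248). Tnfrsf9 was the single called member among 8 immune checkpoint genes (0.321% of all genes were called higher), and it was not called without day 2 replicate 1 (1.27). The list went mostly the other way, with 6 of 8 genes negative and a median of -0.34. At an unadjusted p under 0.05 in limma, 1 was higher and 3 lower (14.5% of all genes in either direction). The lists of lymphocytes held no called gene: of 10 T cell genes 6 and of 8 NK and cytotoxic granule genes 6 had positive differences, with medians of 0.13 and 0.08. Cd3g, a chain of the T cell receptor complex, had 6.63, 6.87 and 7.20 on day 7 and 6.06, 5.85 and 6.04 on day 2. Its difference was 0.92 ± 0.22 (adjusted p = 0.0591). Cd3g was called with arrays scaled to a common median and with array weights (adjusted p = 0.0452 and 0.0276). It was also called with a filter for detection on all arrays of a PBS group (adjusted p = 0.0469), and in no other alternative. Prf1, perforin, had a difference of 0.06, and Gzmb and Gzmc were below detection. The 3 T cell markers tested summed to 198 to 266 on day 7 and 141 to 158 on day 2. Beside Cd3g, these were Cd3e, which differed by 0.25 with overlap, and Cd2, which differed by 0.01 and was not detected. The 10 T cell genes summed to 3080 to 3573 on day 7 and 3358 to 3617 on day 2, with overlap. The NK cell markers summed to 279 to 631 on day 7 and 267 to 353 on day 2. The part of T and NK cells in the granzyme signals was not tested.

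Further rises were those of Gpnmb, Plxdc1, Hdac5, Rcan2 and H2ac18. Gpnmb, a glycoprotein of lipid-laden and repair macrophages that tumour cells can also make, had 9.81, 9.67 and 9.69 on day 7 and 8.13, 8.65 and 8.30 on day 2, and its difference of 1.36 ± 0.19 (adjusted p = 0.00280) stayed called without any 1 array, while a second probe differed by 0.71 and was not called (adjusted p = 0.262). Plxdc1, first described in tumour endothelium, had 8.77, 8.43 and 8.44 on day 7 and 7.32, 7.29 and 7.47 on day 2 and differed by 1.19 ± 0.22 (adjusted p = 0.0158). For both genes each day formed a tight set with no overlap. Hdac5, a class IIa histone deacetylase, had 10.07, 9.85 and 10.41 on day 7 and 8.93, 9.21 and 9.02 on day 2, and its difference of 1.06 ± 0.15 (adjusted p = 0.00353) also stayed called without any 1 array. Rcan2, an inhibitor of calcineurin, differed by 1.02 ± 0.20 (adjusted p = 0.0280) and was not called with BeadChip as a block (adjusted p = 0.0538). The Rcan2 probe was detected on all 3 day 7 arrays (6.13, 6.23 and 5.88) and on 2 of 3 day 2 arrays (5.21, 5.20 and 4.76). H2ac18, a replication-dependent histone H2A gene, had 8.22, 8.28 and 8.02 on day 7 and 6.79, 7.39 and 6.98 on day 2, a difference of 1.12 ± 0.21 (adjusted p = 0.0171). Its near-identical neighbour H2ac19 differed by 1.02 and was also called higher, so which of the pair rose is uncertain. A second probe for H2ac18 differed by 0.40 (adjusted p = 0.556). H2ac18 was the single called member of the 15 histone genes tested from the list, which did not hold H2ac19. Their median was 0.15, and 0.321% of all genes were called higher.

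Calls of Plxdc1, Rcan2 and H2ac18 depended on the arrays. Plxdc1 differed by 1.08 to 1.25 with 1 array left out and was not called without day 7 replicate 1 or day 2 replicate 1 or 2. Rcan2 (0.87 to 1.12) and H2ac18 (0.98 to 1.29) were not called without day 7 replicate 1 or 2 or day 2 replicate 1 or 3. Among the 4 largest rises were those of 2 probes without a gene symbol, ILMN_2450735 and ILMN_1247996, which were singled out after their values were seen. ILMN_2450735 had 8.89, 9.32 and 9.63 on day 7 and 7.36, 5.07 and 7.52 on day 2, a difference of 2.63 ± 0.54 (adjusted p = 0.0325). ILMN_1247996 had 8.27, 9.00 and 8.55 on day 7 and 6.87, 5.41 and 6.96 on day 2, a difference of 2.20 ± 0.43 (adjusted p = 0.0252). For both, day 2 replicate 2 was far below the other 2 day 2 arrays, and without it the differences were 1.84 and 1.70. ILMN_2450735 was not called with BeadChip as a block (adjusted p = 0.0571). It was called in the fit without day 2 replicate 3 and in none of the other 5, and ILMN_1247996 in those without day 7 replicate 1 or day 2 replicate 3.

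**Figure D3:**
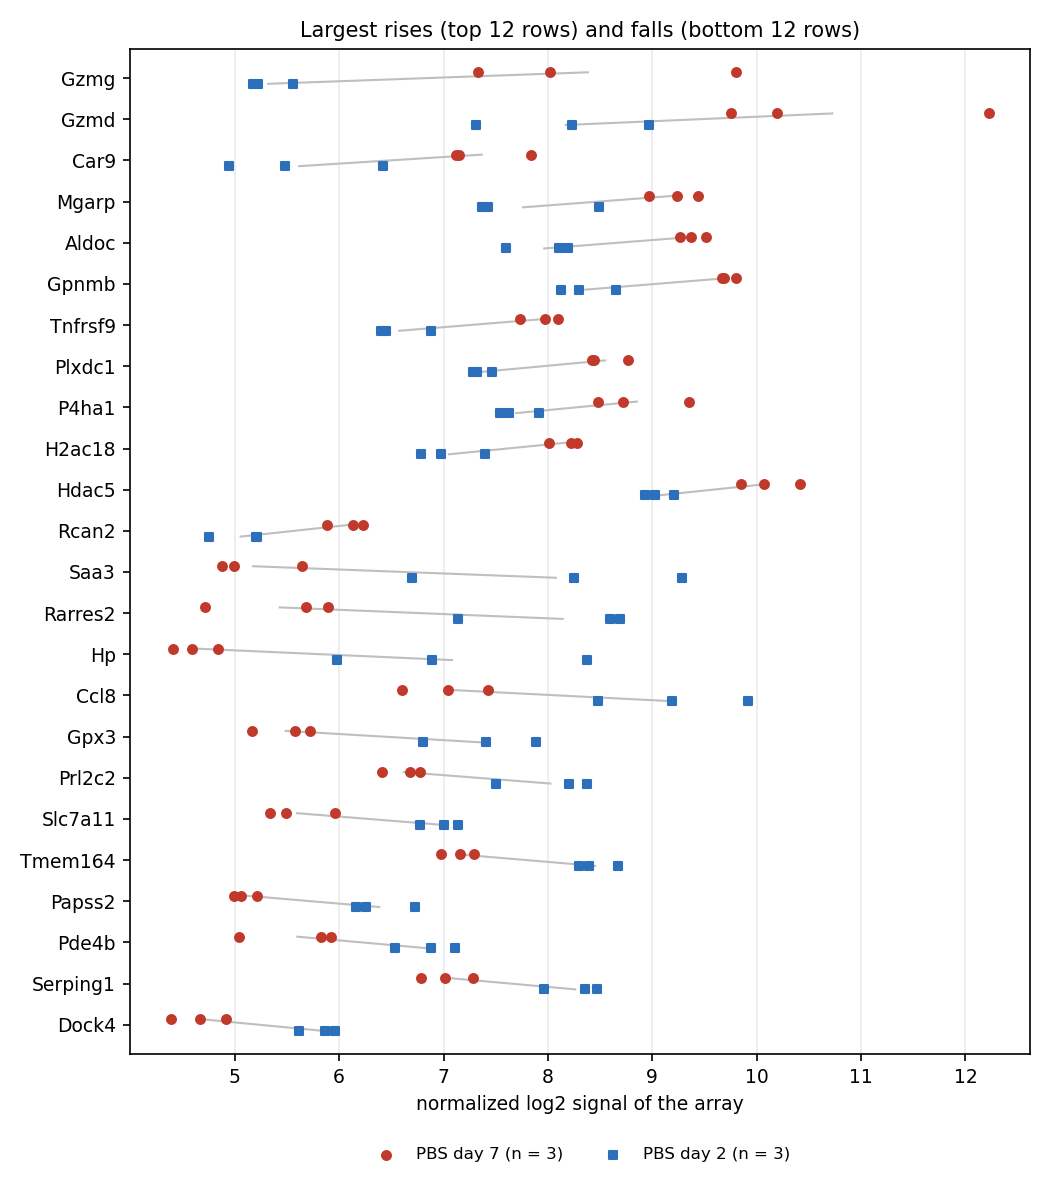
Normalized log2 signal (horizontal axis) of the 12 largest rises and 12 largest falls among called genes with a symbol, 1 row per gene, with red circles for the 3 day 7 arrays and blue squares for the 3 day 2 arrays and grey lines joining the group means. In every row the 2 sets of 3 do not overlap; day 7 replicate 3 is the rightmost red circle of Gzmg and Gzmd, at 9.80 and 12.22, and day 2 replicate 1 the rightmost blue square of Saa3 and Hp, at 9.29 and 8.37.

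The largest fall was that of Saa3, and with it stood other genes of complement and the acute phase. Of 16 members tested, 3 were called lower (18.8%, against 0.313% of all genes) and 0 higher, and the median difference was -0.41. Saa3, an acute-phase serum amyloid A made by macrophages, fat and stroma, had 4.99, 4.88 and 5.65 on day 7, detected on 1 of 3 arrays, and 9.29, 8.25 and 6.70 on day 2. Day 2 replicate 1 was the highest and replicate 3 the lowest of the day 2 arrays, and all lay above day 7. The difference was -2.90 ± 0.48 (adjusted p = 0.0106), and since day 7 replicates 1 and 2 lay below the lowest detected signals of their arrays, 5.30 and 5.37, no fold is given. Hp, haptoglobin, which binds free haemoglobin, had 4.41, 4.59 and 4.84 on day 7, detected on 0 of 3 arrays, and 8.37, 5.98 and 6.89 on day 2, with replicate 1 the highest. It was at least 3.29-fold lower on day 7 (adjusted p = 0.0386), and was not called in the authors' normalized values (adjusted p = 0.0917). Of 2 further probes for Hp, one differed by -0.95 and the other by -0.90, and neither was called (adjusted p = 0.130 and 0.146). Serping1, the C1 inhibitor of complement and contact activation, had 6.78, 7.02 and 7.28 on day 7 and 8.47, 8.36 and 7.96 on day 2, and the difference was -1.24 ± 0.22 (adjusted p = 0.0129).

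The complement components C1q, C4b and Cfb were not called. The 3 chains of C1q, C1qa, C1qb and C1qc, differed by 0.07, -0.05 and -0.06, and C4b and Cfb by -0.88 and -0.82 (adjusted p = 0.179 and 0.204). Lcn2, a siderophore-binding protein, and Slpi, which inhibits neutrophil elastase, had differences of -0.94 and -1.06 (adjusted p = 0.217 and 0.0862) with no overlap between the days, but Lcn2 was detected on 0 of 3 day 7 arrays and 1 of 3 day 2 arrays; Slpi was called with the 6 PBS arrays fitted alone (adjusted p = 0.00848). Without day 2 replicate 1, 0 members of the list were called, and Saa3, Hp and Serping1 differed by -2.30, -1.83 and -1.13. That array also had the highest muscle signal, whereas day 2 replicate 2, with the lowest, had Saa3 at 8.25. The adipocyte genes Lpl and Adipoq were also highest there: Lpl, lipoprotein lipase, had 4.89, 5.68 and 5.78 on day 7 and 7.99, 6.50 and 6.81 on day 2 (adjusted p = 0.190; 0.0404 with BeadChip as a block). The part of muscle and fat in these values was not tested. Without day 7 replicate 1 or 2 the one called member was Saa3, and Hp was called in the fit without day 2 replicate 2 and in none of the other 5. The list median was -0.32 to -0.54 over these fits and -0.12 with arrays scaled to a common median, against 0.10 for all genes there.

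Rarres2 and Gpx3, both secreted, were also lower on day 7. Rarres2, which encodes chemerin, a chemoattractant for macrophages, dendritic and NK cells, had 5.89, 4.72 and 5.68 on day 7 and 8.69, 8.59 and 7.14 on day 2, a difference of -2.71 ± 0.43 (adjusted p = 0.00707), with the probe detected on 2 of 3 day 7 arrays. No array overlapped, and the call was lost without day 2 replicate 1 (-2.44). Of 2 other probes kept for Rarres2, one differed by -2.37 and the other by 0.05. Gpx3, the secreted glutathione peroxidase, had 5.72, 5.57 and 5.17 on day 7 and 7.89, 7.41 and 6.81 on day 2, a difference of -1.88 ± 0.40 (adjusted p = 0.0376), highest on day 2 replicate 1 as for Saa3, Hp, Lpl and Adipoq, and the probe was detected on 2 of 3 day 7 arrays. It was called in the fit without day 2 replicate 3 and in none of the other 5, with differences of -1.62 to -2.16, and it was not called in the authors' normalized values (adjusted p = 0.0521).

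Among 20 chemokine genes and receptors 1 was called, Ccl8, and among 17 inflammatory cytokine genes 1, Il1b, against 0.313% called lower of all genes. Ccl8 encodes a chemokine for monocytes and T cells and had 7.04, 6.60 and 7.42 on day 7 and 9.19, 9.92 and 8.48 on day 2, highest on day 2 replicate 2. It was 4.52-fold lower on day 7, a difference of -2.18 ± 0.38 (adjusted p = 0.0124). Il1b, interleukin 1 beta, had 8.18, 8.47 and 8.06 on day 7 and 9.35, 8.89 and 9.64 on day 2, without overlap, and its difference was -1.06 ± 0.20 (adjusted p = 0.0171). Without day 2 replicate 1 neither was called (-2.18 for Ccl8 and -1.03 for Il1b), Ccl8 was not called without day 7 replicate 2 (-1.96), and Il1b was not called without day 7 replicate 1 or 3 or day 2 replicate 3 (-0.89 to -1.26 over all 6 fits).

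The ligands of Ccr2, the receptor that brings monocytes from blood into tissue, were not called. Ccl2 had 9.34, 9.10 and 9.28 on day 7 and 9.94, 9.93 and 10.06 on day 2, and Ccl7 had 10.34, 10.20 and 10.86 on day 7 and 11.11, 11.27 and 11.24 on day 2. Neither overlapped between the days, with differences of -0.73 ± 0.28 and -0.74 ± 0.21 (adjusted p = 0.225 and 0.121). Both were called lower when the 6 PBS arrays were fitted alone (adjusted p = 0.0113 for Ccl2 and 0.0387 for Ccl7), where the spread of the DX arrays did not enter. Ccl12, the third ligand, overlapped and differed by 0.07 ± 0.22 (adjusted p = 0.916). Ccr2 itself had 4.37, 4.89 and 4.80 on day 7 and 5.42, 5.78 and 4.87 on day 2. The days overlapped, and the difference was -0.67 ± 0.27 (adjusted p = 0.262). The probe was detected on 0 of 3 day 7 arrays and 2 of 3 day 2 arrays. The lowest detected signal was 5.30 to 5.43 on day 7 arrays and 5.12 to 5.17 on day 2 arrays, so detection took more signal on day 7. Ccl21a, a chemokine of lymphatic vessels with near-identical copies, had 8.46, 7.71 and 6.15 on day 7 and 5.41, 4.40 and 6.58 on day 2, a difference of 1.98 ± 0.56 in the other direction (adjusted p = 0.118).

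Matrix genes moved unevenly. Tnc, tenascin C, a matrix protein of wounds and tumour stroma, had 10.51, 10.60 and 10.47 on day 7 and 11.26, 11.45 and 11.20 on day 2. The arrays of each day lay close together and apart from the other day, and the difference was -0.77 ± 0.14 (adjusted p = 0.0129). It was not called without day 7 replicate 3 or day 2 replicate 1 or 2 (-0.70 to -0.82 over the 6 fits). Tnc was the 1 called gene of 24 stromal genes, whose median of -0.18 became 0.03 with arrays scaled to a common median; of all genes 0.313% were called lower. Of 3 other probes for Tnc, one differed by -0.23, one by -0.60 and one by -0.73. Of 15 collagen genes 0 were called by limma, with 3 at an unadjusted p under 0.05 (14.5% of all genes); Col1a1, a chain of type I collagen, had 10.36, 10.50 and 10.07 on day 7 and 11.28, 11.09 and 11.07 on day 2 (adjusted p = 0.125; 0.0108 with the 6 PBS arrays fitted alone), and Col3a1 differed by 0.06. Lum, the small proteoglycan lumican, and Col15a1, a basement membrane collagen, had differences of -1.29 and -1.31 (adjusted p = 0.0674 and 0.0867), and were called in that fit too (adjusted p = 0.0183 and 0.0132).

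Slc7a11 and Iars, of cystine uptake and transfer RNA charging, were lower on day 7. Slc7a11, the cystine and glutamate exchanger, had 5.34, 5.50 and 5.96 on day 7 and 6.77, 7.00 and 7.13 on day 2, a difference of -1.37 ± 0.25 (adjusted p = 0.0158). Iars, which charges isoleucine transfer RNA, had 9.63, 9.83 and 9.48 on day 7 and 10.38, 10.20 and 10.08 on day 2, a difference of -0.57 ± 0.12 (adjusted p = 0.0306). In neither gene did an array of one day reach the other. These were 2 called lower of 22 genes of the amino acid response (0.313% of all genes were called lower), whose median was -0.24, and Slc7a11 was also 1 of 16 NRF2 antioxidant genes, whose median was -0.08 (0.01 with arrays scaled to a common median). Ddit3 and Chac1, stress genes of the same response, had positive differences of 0.73 and 0.80 (adjusted p = 0.234 and 0.112; 0.0372 for Ddit3 with the 6 PBS arrays fitted alone). A second probe for Slc7a11 differed by -0.24. Slc7a11 was called in the fit without day 7 replicate 3 and in none of the other 5 (-1.24 to -1.55), and Iars in those without day 7 replicate 2 or day 2 replicate 3.

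The smallest p of all genes was that of Tmem164, a membrane protein that takes part in ether lipid metabolism. It had 7.16, 6.98 and 7.29 on day 7 and 8.67, 8.29 and 8.39 on day 2, 2 separate and narrow sets, and its difference was -1.31 ± 0.14 (adjusted p = 4.63e-04). Papss2, which makes the sulfate donor for proteoglycans, had 5.00, 5.21 and 5.06 on day 7, detected on 0 of 3 arrays, and 6.26, 6.73 and 6.16 on day 2, and was at least 2.03-fold lower (adjusted p = 0.00707). Tmem164 and Papss2 stayed called without any 1 array, and a second probe for Tmem164 differed by -0.41. Prl2c2, proliferin, whose family members are near-identical, had 6.68, 6.41 and 6.77 on day 7 and 8.37, 8.20 and 7.50 on day 2, a difference of -1.40 ± 0.25 (adjusted p = 0.0137). Pde4b, a cAMP phosphodiesterase of leukocytes, differed by -1.24 ± 0.25 (adjusted p = 0.0280), with day 7 values of 5.93, 5.83 and 5.04, detected on 2 of 3 arrays, and day 2 values of 7.11, 6.54 and 6.88. Dock4, an exchange factor for small GTPases, was detected on 0 of 3 day 7 arrays and 3 of 3 day 2 arrays and was at least 1.36-fold lower (adjusted p = 0.0257), but was not called with BeadChip as a block (adjusted p = 0.0525), and 2 further probes differed by -0.56 and -0.43. Without day 2 replicate 1, and also without day 7 replicate 2, none of Prl2c2 (-1.23 to -1.67 over the 6 fits), Pde4b (-0.96 to -1.41) and Dock4 (-1.02 to -1.28) was called; Prl2c2 was also not called without day 2 replicate 2, and Pde4b and Dock4 were also not called without the third replicate of either day.

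Most other lists had no called member, and their counts at an unadjusted p under 0.05 stand against 14.5% of all genes. Of all genes, 47.5% had a positive difference. All 9 genes of major histocompatibility complex (MHC) class II presentation had negative differences, with a median of -0.61 and 6 of 9 without overlap (22.6% of all genes); 0 were called by limma and 5 had an unadjusted p under 0.05. H2-Aa, a class II chain, had 9.49, 9.38 and 9.53 on day 7 and 10.46, 9.75 and 10.34 on day 2, a difference of -0.72 ± 0.29 (adjusted p = 0.268). Ciita, the class II transactivator, was detected on 0 of 3 day 7 arrays and 2 of 3 day 2 arrays (adjusted p = 0.0629; 0.0465 without day 2 replicate 2). Day 2 replicate 2, the highest of its day for hypoxia genes, was the lowest of its day for H2-Aa and Cd74. The class II median was -0.45 without day 2 replicate 1 and -0.81 without day 2 replicate 2. Of 21 monocyte and macrophage genes, 17 were negative and 0 called (7 lower and 1 higher at an unadjusted p under 0.05; median -0.35): Adgre1, the F4/80 antigen, differed by -0.82 and Lyz2, lysozyme, by 0.43 (adjusted p = 0.163 and 0.199; 0.0126 for Adgre1 with the 6 PBS arrays fitted alone). Mrc1, the mannose receptor, differed by -0.99 (adjusted p = 0.0776; 0.0369 with the 6 PBS arrays fitted alone), and Gpnmb and Il1b were the called members of the 15 macrophage polarisation genes, one in each direction.

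Of 31 cell cycle and replication genes, 28 had negative differences, 9 with an unadjusted p under 0.05, and 0 were called by limma. Their median was small, -0.18, and -0.13 to -0.22 with 1 array left out; Ccna2, cyclin A, differed by -0.69 and Top2a, topoisomerase II alpha, by -0.22 (adjusted p = 0.251 and 0.702). Endothelial and pericyte genes had a median of -0.38 with 15 of 20 negative and 0 called (1 higher and 6 lower at an unadjusted p under 0.05). Neutrophil genes had a median of -0.56 over 9 genes and mast cell genes -0.66 over 4, with 0 called and 3 lower at an unadjusted p under 0.05 in each; the neutrophil markers S100a9 and Csf3r were detected on 0 of 3 day 7 arrays. Type I interferon genes had a median of 0.25 with 16 of 21 positive and 0 called (2 at an unadjusted p under 0.05), and the median was 0.01 to 0.37 with 1 array left out. Skeletal muscle had the lowest median, -0.70 over 17 genes, with 0 called and 0 at an unadjusted p under 0.05, and it was -1.55 within BeadChip 2, -0.22 within BeadChip 3 and -0.15 with arrays scaled to a common median. Mitochondrial respiratory chain and ribosomal protein genes had medians of -0.02 and 0.08, which were 0.09 and 0.32 with arrays scaled to a common median. In all, 39 lists named 738 genes, of which 545 were tested and 125 were below detection.

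**Figure D4:**
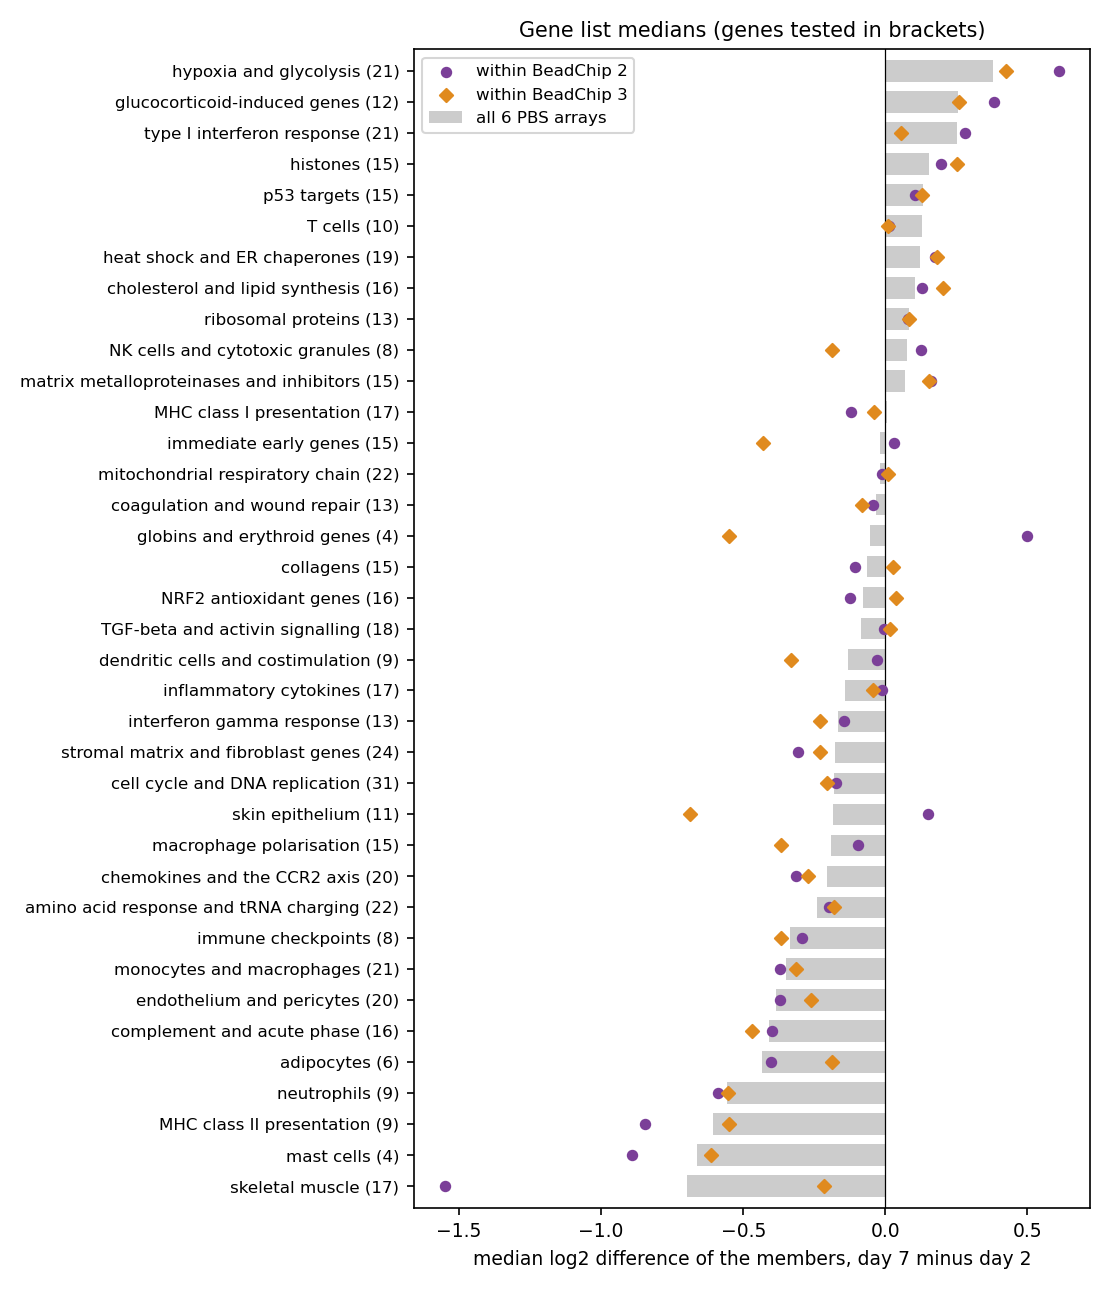
Grey bars give the median log2 difference, day 7 minus day 2 (horizontal axis), of the tested members of each of 37 gene lists with 3 or more tested genes; purple circles and orange diamonds give the same within BeadChips 2 and 3. The hypoxia list is at the top, with 0.38, 0.61 and 0.42, and the skeletal muscle list at the bottom, with -0.70, -1.55 and -0.22. Day 2 replicate 1 was the only PBS array of its day on BeadChip 2, and day 7 replicate 1 on BeadChip 3.

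The same interval was followed in DX tumours, on arrays that the PBS comparison does not share, which allows the change without drug to be set beside the change with it. In DX tumours 203 genes were called between the days (1.63%), the day 7 value being the mean of responders and non-responders. Of the 79 genes called in PBS tumours, 65 (82.3%) had the same sign in DX tumours, against 62.7% of all genes. Of the 40 rises, 37 had the same sign and 13 were also called higher; of the 39 falls, 28 had the same sign and 0 were also called lower, and the difference between these counts was not tested. Median differences were 0.91 in PBS and 0.52 in DX tumours for the rises, and -1.15 in PBS and -0.16 in DX tumours for the falls. Since the 79 genes were chosen by their PBS change, smaller changes in DX tumours follow in part from that choice, and nothing is read from the medians or from the number of called differences of changes among them. Gzmg differed by 3.06 in PBS and 3.66 in DX tumours, Gzmd by 2.55 and 2.47, Car9 by 1.75 and 1.65, and Tnfrsf9 by 1.36 and 1.20, each called in both. P4ha1 differed by 1.16 in PBS and 0.04 in DX tumours, but the difference of these changes was not called (adjusted p = 0.171).

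The difference of the changes, PBS minus DX, was called for 28 genes (0.225%), 11 of them among the 79. Tmem164 was 1 of these, with -1.31 in PBS and -0.01 in DX tumours and a difference of -1.29 ± 0.20 (adjusted p = 0.0129). The probes ILMN_2450735 and ILMN_1247996 were 2 more, higher on day 7 in PBS tumours by 2.63 and 2.20 and lower in DX tumours by -1.57 and -1.45 (differences of 4.20 ± 0.77 and 3.64 ± 0.61). A called difference was a condition for naming these 2 probes, so their calls are no separate finding. Interferon genes differed in another way. In PBS tumours 0 of 21 type I interferon genes were called and the median was 0.25. In DX tumours 13 of the 21 were called lower, against 112 of all 12451 genes, and the median was -0.95. For 8 of 21 the difference of the changes was called. Isg15, a ubiquitin-like interferon product, differed by 0.25 in PBS and -1.42 in DX tumours, and Ifit2, an interferon-induced RNA-binding protein, by 0.07 and -1.28. The number of genes with a called difference was 12 to 18 with 1 PBS array left out, 13 without day 2 DX replicate 2 and 1 without day 2 DX replicate 1, so it rested on that array, 1 of 2 in its group. The DX count itself was 8 without that array and 50 without the other.

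**Figure D5:**
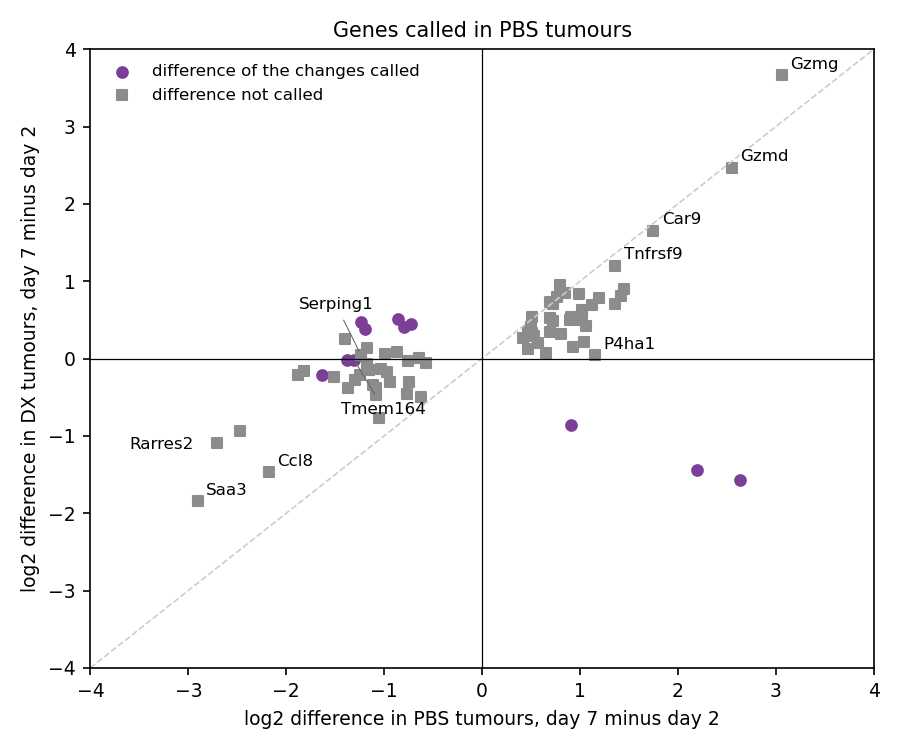
Log2 difference, day 7 minus day 2, in PBS tumours (horizontal axis) and in DX tumours (vertical axis) for the 79 genes called in PBS tumours, with a dashed line of equal change. Purple circles mark the 11 genes whose difference of changes was called and grey squares the other 68; rises with both values near the line include Gzmg at 3.06 and 3.66. The genes were chosen by the value on the horizontal axis.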

How the data were processed

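Bulk tumour RNA (total RNA, Trizol, per the labels' protocols) was measured on 17 1-colour Illumina arrays, 6 of them of PBS tumours. The deposited table of non-normalized intensity and a detection p-value per probe came from GenomeStudio 2011.1, per the submitters' processing notes; the sources used here do not give how that detection p arose. A second deposited table by the authors holds normalized intensity, with 1 distribution shared by all columns and its steps unstated, and served as an alternative. The files give no depth, so precision is limited by the number of arrays.

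Intensities were background-corrected and quantile-normalized (neqc, offset 16, control spread inferred from detection p) to log2 in limma 3.58.1 with R 4.3.3. Probes with a detection p under 0.01 on at least 2 of 17 arrays were kept, and a gene was its kept probe of highest mean (10035 genes with a symbol and 2416 without). Of 45281 probes, 34885 had 1 symbol, 18 several and 10378 none; 34807 were looked up by gene ID in RefSeq and 0 symbols changed. Means of 6 groups were fitted to all 17 arrays (11 residual degrees of freedom), with moderated variances following a trend on signal. A gene was called at a Benjamini-Hochberg adjusted p under 0.05 over all 12451 genes, and every adjusted p in the text is limma's. Errors (±) are standard errors of that fit. The fit was tested on simulated data. "At least" folds set the brighter mean against the lowest detected signal of each array of the dimmer day.

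Named genes were the 12 largest called changes with a symbol in each direction, seen on all arrays of the higher day, and from each list no more than 4 called genes or 2 uncalled examples, with Ccl2, Ccl7, Ccl12 and Ccr2 always named; the other 39 genes and probes named were chosen after their values were seen. The members and the gene lists were chosen with earlier results of these data known. Same-numbered day 7 and day 2 arrays deviated from their group means with correlations of -0.050, -0.128 and -0.060, so the numbers were not taken to pair samples. Alternatives covered background, scaling, filter, probe choice, variance model, BeadChip, replicate block and leaving out each array.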

Additional observations from a re-analysis of the deposited data

Results flagged for a closer look

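In 5 named genes and 2 unnamed probes the day 7 minus day 2 change differed between PBS and DX tumours by limma's test of that difference, PBS change minus DX change. The 2 probes were named on condition that this difference was called, so its call is no separate finding for them. Tmem164 changed by -1.31 in PBS and -0.01 in DX tumours, a difference of -1.29 ± 0.20 (SE, adjusted p = 0.0129). For the interferon genes, Isg15 changed by 0.25 in PBS and -1.42 in DX tumours, a difference of 1.68 ± 0.27 (adjusted p = 0.0143), and Ifit2 by 0.07 in PBS and -1.28 in DX tumours, a difference of 1.35 ± 0.19 (adjusted p = 0.00898). For the globin chains, which mark red blood cells, Hbb-bs changed by -0.24 in PBS and 3.92 in DX tumours, a difference of -4.16 ± 0.62 (adjusted p = 0.0092), and Hbb-bt by -0.04 in PBS and 3.87 in DX tumours, a difference of -3.90 ± 0.66 (adjusted p = 0.0143). ILMN_2450735 changed by 2.63 in PBS and -1.57 in DX tumours, a difference of 4.20 ± 0.77 (adjusted p = 0.0260), and ILMN_1247996 by 2.20 in PBS and -1.45 in DX tumours, a difference of 3.64 ± 0.61 (adjusted p = 0.0143). The day 2 DX group held 2 arrays, and without replicate 1 of it the difference was called for 1 gene in all.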

How the results depend on the processing

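All 79 calls kept their direction under every alternative in which the gene was tested, except 1 gene outside those named, which changed sign when the probes of a gene were averaged. Where arrays were left out, the kept direction follows from the lack of overlap between the days. Against 40 genes higher and 39 lower, fitting the 6 PBS arrays alone gave 51 and 87, and the replicate block on those arrays 30 and 61, with 48 of the 79 still called; the numbers share no stated source. Common-median scaling gave 65 and 31, no filter 24 and 27, no variance trend 22 and 31, and array weights 117 and 132. Without 1 array, 4 to 33 were higher and 4 to 34 lower. Without both dim day 7 arrays 0 and 0 were called (765 at an unadjusted p under 0.05), a fit that leaves 1 day 7 array, assumed to vary like the other groups. With BeadChip as a block 39 and 38 were called (57 of the 79 among them), and the authors' normalized values gave 27 and 29. Called hypoxia members numbered 3 with averaged probes, 3 without the trend, 3 with a common detection floor (chosen after seeing the data, as were the dim arrays), 0 without the dim arrays, and 0 to 9 without 1 array. Called complement and acute-phase members numbered 0 without the dim arrays and 0 to 3 without 1 array. The DX comparison called 313 genes with BeadChip as a block, 110 with no filter and 8 to 50 without 1 day 2 DX array; the difference of changes was called for 1 to 18 genes without 1 array. Of the 29 called genes named by rule, 5 stayed called in all 6 fits without 1 array (Tmem164, Aldoc, Gpnmb, Hdac5 and Papss2). The median of class II genes was -0.85 within BeadChip 2, that of immediate early genes -0.43 within BeadChip 3 and -0.36 without the dim arrays, that of mast cell genes -0.25 without background correction and that of histones 0.28 without the dim arrays. The cause was not tested. Signal near background limits Pfkfb3, Hp, Papss2 and Dock4, undetected on every array of 1 day, and Saa3, detected on 1 of 3 day 7 arrays. Such signal also touches Rarres2, Gpx3 and Pde4b, detected on 2 of 3 day 7 arrays, and Car9 and Rcan2, on 2 of 3 day 2 arrays. With the common detection floor, 48 of the 79 genes stayed called, and 20 of the 29 called genes named by rule.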
